A study of Mus musculus with 9 samples.

Results

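The genes described here encode the constant regions of mouse antibodies and a pair of proteins that antibody-secreting cells need. They are the kappa light chain gene Igkc, the lambda genes Iglc1 and Iglc2, the heavy chain genes Ighm, Ighg1, Ighg2b, Ighg2c and Igha, and Jchain and Mzb1. They were taken by symbol from the deposited expression table, where the 10 symbols match 10 of 32761 genes. All 10 are among the 15353 genes that passed the filter of a mean of at least 0.5 FPKM over 9 libraries. Mzb1 passed it through 1 group only, since its mean was under 0.5 FPKM in the other groups.

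An antibody is built from paired heavy and light chains. The constant region of the heavy chain sets the isotype: Ighm gives IgM, the first isotype a B cell makes, and class switching moves the cell to an IgG subclass or to IgA. The light chain is kappa or lambda, and most mouse antibodies carry kappa. Plasma cells, the end stage of the B cell lineage, transcribe these genes at very high levels, so a small number of plasma cells can supply most of the immunoglobulin RNA of a tissue. Jchain links IgM and IgA into polymers, and Mzb1 is a chaperone of the endoplasmic reticulum that helps B cells and plasma cells assemble and secrete antibody.

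Tumours were grown in mouse liver from Hepa1-6-luc, a mouse hepatoma line, and taken on day 14. RNA was sequenced from 3 tumours in each of 3 groups. The first is an untreated Control. The second, labelled Lenvatinib+anti-PD1 and called the lenvatinib group here, received free lenvatinib, an inhibitor of VEGF and FGF receptor kinases, with an antibody that blocks PD1, an inhibitory receptor of T cells. The third, labelled Co+Len@OVA+anti-PD1 and called the nanocluster group here, received drug-loaded nanoclusters at 2 mg/mL with the same antibody. That label also names Co and OVA, which appear in no other group's label, and the meaning of Co is not spelled out in the labels. Drug or nanocluster was injected every 3 days and the antibody, at 50 µg, every 4 days. No group in the table received the antibody alone, so its effect and that of the drug cannot be told apart. None received the nanocluster without drug, so the effects of Co, OVA and the drug's form cannot be told apart either. The labels give no mouse strain, age or sex.

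In the GRCm38 build the 5 heavy chain members are together on the minus strand of chromosome 12, in the order Igha (chr12:113254830-113260236), Ighg2c (chr12:113285325-113288932), Ighg2b (chr12:113302965-113307933), Ighg1 (chr12:113325240-113330523) and Ighm (chr12:113418558-113422730). Igkc is on the plus strand of chromosome 6 (chr6:70726435-70726966), Iglc1 (chr16:19061618-19062071) and Iglc2 (chr16:19198396-19200351) are on the minus strand of chromosome 16, and Jchain is on the minus strand of chromosome 5 (chr5:88519809-88527891). These positions come from the GENCODE M21 annotation. The build the authors used is not given in the sources used here.

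The IgG subclasses moved differently in these tumours, so a sequence that sets them apart is shown. It is the hinge exon, which links the antigen-binding arms to the stem and carries the cysteines that bond the heavy chains to each other. Each is written 5′ to 3′ on the coding (minus) strand of GRCm38, with the in-frame cysteine codons in capitals.
Ighg1: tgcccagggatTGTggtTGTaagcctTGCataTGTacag
Ighg2b: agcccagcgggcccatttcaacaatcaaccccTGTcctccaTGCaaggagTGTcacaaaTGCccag
Ighg2c: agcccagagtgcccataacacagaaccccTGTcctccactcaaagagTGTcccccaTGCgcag
The Ighg1 exon (chr12:113329844-113329882) has 39 bases and 4 cysteine codons, the Ighg2b exon (chr12:113307261-113307326) has 66 bases and 4, and the Ighg2c exon (chr12:113288263-113288325) has 63 bases and 3. Over the whole constant coding sequence Ighg2b and Ighg2c are 86.3% identical, with 137 of 1002 aligned bases different and a longest shared run of 78 bases. Ighg1 is 78.3% identical to Ighg2b and 78.5% to Ighg2c. Reads of 150 bases are longer than the longest run these genes share.

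A pair of lambda genes is more alike than these. Iglc2 and Iglc3, another lambda gene on chromosome 16 that is no member, are 96.5% identical, with 11 of 314 bases different. Their longest shared run is 79 bases, close to that of Ighg2b and Ighg2c and also shorter than a read. The stretches below, from near the start of their coding sequence, have 120 bases each, and capitals mark the 7 bases that differ.
Iglc2: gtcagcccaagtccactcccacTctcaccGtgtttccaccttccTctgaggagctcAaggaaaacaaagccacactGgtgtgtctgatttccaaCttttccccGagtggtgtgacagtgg
Iglc3: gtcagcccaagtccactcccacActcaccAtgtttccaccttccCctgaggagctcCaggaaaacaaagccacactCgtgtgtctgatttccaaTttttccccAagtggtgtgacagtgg
These lie at chr16:19198733-19198852 and chr16:19065562-19065681 of the same build. The sources used here do not give how the authors shared out reads that fit both genes, and the split between Iglc2 and Iglc3 is uncertain. Iglc1 is 74.8% identical to Iglc2.

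The values are FPKM, fragment numbers scaled by transcript length and by the size of the library, so levels of different genes can be compared per length. The deposited column totals were 3.32e+05 to 3.73e+05 FPKM, and the depth in reads is unknown. A property of the libraries touches every test. Genes more than 4-fold apart in libraries 1 and 2 of a group had an intermediate value in library 3 in 94.0% of 298 cases in Control, 96.7% of 152 in the lenvatinib group and 94.3% of 88 in the nanocluster group. If the third libraries are not independent samples, p-values from 9 libraries are too small. Calls of members and counts over gene lists are therefore also given from libraries 1 and 2 of each group alone, a fit with 3 residual degrees of freedom. Of the calls of single list genes named below, all were lost there except that of Pigr between treatments. Of the 10 members, library 3 lay between the other libraries for 5 in Control, 6 in the lenvatinib group and 8 in the nanocluster group. Labels call the samples separate tumours, and p-values measure the spread between tumours only if the libraries are independent.

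Antibody transcripts were highest in the nanocluster group and lowest in the lenvatinib group. Summed over the heavy chain constant genes, the level was 46.5 ± 7.46 FPKM in Control, 20.4 ± 4.03 in the lenvatinib group and 161 ± 19.0 in the nanocluster group (SD, n = 3), and no library of one group reached the range of another. All constant genes together made up 0.0312% of the total FPKM in Control, 0.0136% in the lenvatinib group and 0.113% in the nanocluster group. In RNA from whole tumours, fewer antibody-secreting cells and less RNA per cell cannot be told apart.

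**Figure D1:**
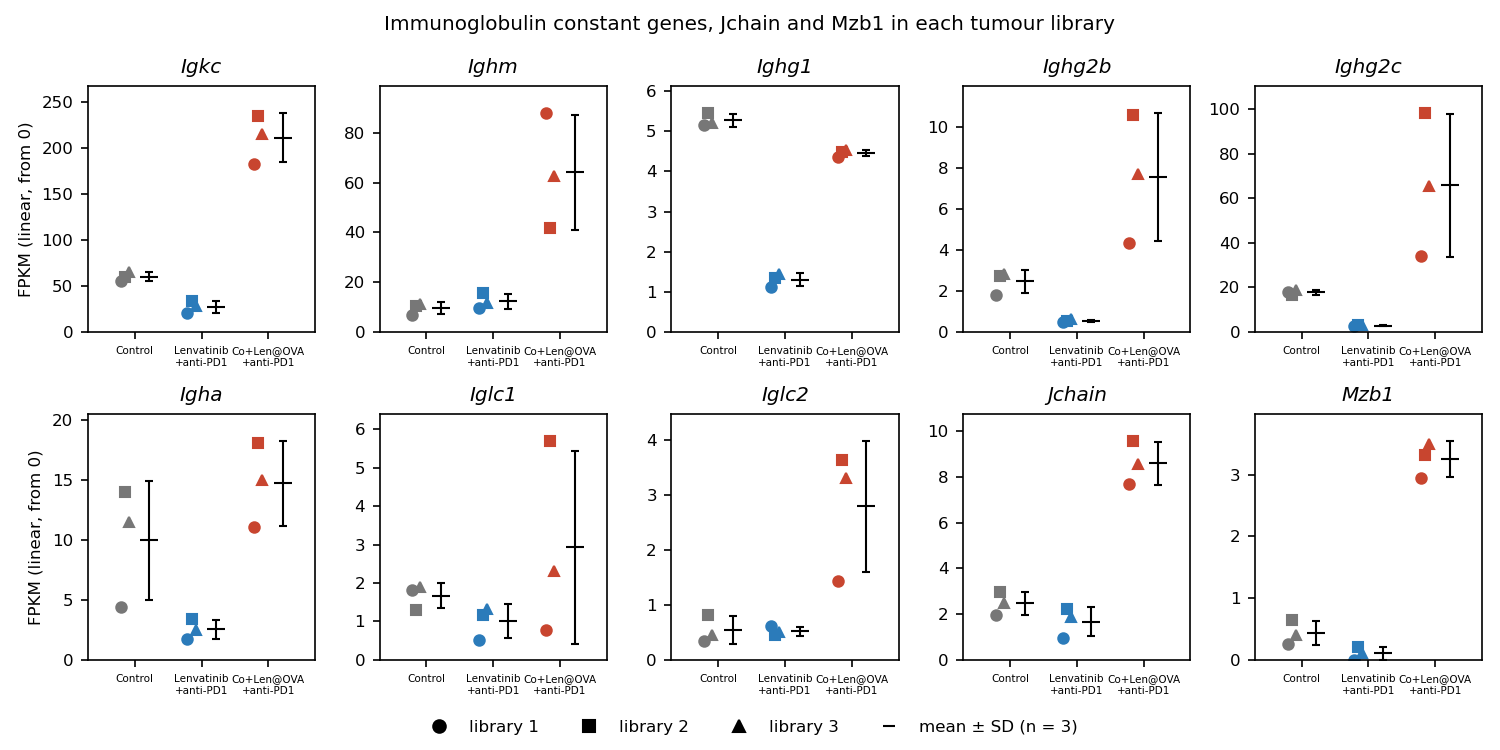
FPKM (linear axis from 0, a separate scale for each gene) of the 10 genes in the 3 libraries of each group, with the mean and SD (n = 3) beside the points. Igkc reaches 182 to 235 FPKM in the nanocluster group, above every Control and lenvatinib library, whereas Ighg1 is highest in Control and Iglc1 overlaps between groups.

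Against Control, 7 of the 10 members rose in the nanocluster group and 0 fell by limma at an adjusted p under 0.05 (1 was lower at an unadjusted p under 0.05). Over all tested genes 20.9% were called higher and 12.7% lower in this comparison. The median log2 fold change of the members was 1.62, beside 0.13 over all genes. In libraries 1 and 2 alone 0 members passed by limma (7 were higher and 0 lower at an unadjusted p under 0.05), where 0.111% of all genes were called higher and 0.411% lower. All 10 kept their direction there. The values of 7 members were higher in the nanocluster group without overlap, beside 32.4% of all genes, and 1 was lower without overlap, beside 17.3%. Between lenvatinib and Control, 5 members fell and 0 rose by limma (0 higher at an unadjusted p under 0.05), where 9.87% of all genes were called lower and 13.8% higher. The members' median was -0.88, beside 0.05 over all genes, and 1 member, Ighg1, passed in libraries 1 and 2 alone (4 were lower at an unadjusted p under 0.05), where 0.130% of all genes were called lower and 0.215% higher. Without overlap 6 members were lower and 0 higher, beside 17.4% and 26.1% of all genes. The nanocluster group exceeded the lenvatinib group in 9 members by limma and 0 were lower (0 at an unadjusted p under 0.05), beside 17.3% of all genes called higher and 12.0% lower. There the members' median was 2.32, beside 0.07 over all genes, and 5 members (Igkc, Ighg1, Ighg2b, Ighg2c and Mzb1) passed in libraries 1 and 2 alone, beside 0.450% of all genes called higher and 1.96% lower. Without overlap 9 members were higher and 0 lower, beside 34.3% and 20.4% of all genes. Mzb1 is among the 7 and the 9, and it reached the filter through the nanocluster group alone. The 3 comparisons share libraries, so they are not independent of each other.

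Scaling of the table shifts all genes a little. With median-of-ratios scaling the median over all genes in the nanocluster to Control comparison moved from 0.13 to -0.00035, and the calls from 3209 higher and 1946 lower to 2052 and 2822. With upper-quartile scaling they were 1637 and 2997. Against lenvatinib the nanocluster calls went from 2657 higher and 1850 lower to 1982 and 2320 with median-of-ratios and 1914 and 1979 with upper-quartile scaling, and lenvatinib against Control from 2120 and 1516 to 1292 and 2090 with upper-quartile scaling. Under every scaling tried the members that rose or fell kept their calls.

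Igkc was the most abundant member and the lambda genes were among the lowest. Igkc, the constant region of kappa light chains, was at 55.0, 59.3 and 64.9 FPKM in Control libraries 1 to 3, at 20.8, 33.7 and 28.3 in the lenvatinib group, and at 182, 235 and 215 in the nanocluster group. The groups did not overlap, and Igkc was the highest of the 10 members in every library. Its means were 59.7 ± 4.93, 27.6 ± 6.50 and 211 ± 26.7 FPKM (SD, n = 3). It rose over Control in the nanocluster group by a log2 fold change of 1.80 ± 0.17 (SE; adjusted p = 0.000382), with 1.85 and an adjusted p of 0.0646 in libraries 1 and 2 alone. In the lenvatinib group it fell, with a log2 fold change of -1.13 ± 0.17 (adjusted p = 0.00337; 0.166 in libraries 1 and 2 alone). Between the treatments the difference was 2.93 ± 0.17 on the log2 scale (adjusted p = 2.4e-05), and it passed in libraries 1 and 2 alone (2.94, adjusted p = 0.0156).

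The lambda genes were far lower than Igkc. Iglc1 was at 1.82, 1.30 and 1.89 FPKM in Control, at 0.512, 1.17 and 1.33 in the lenvatinib group, and at 0.768, 5.70 and 2.31 in the nanocluster group. Its nanocluster libraries spanned a wider range than all other libraries together. No comparison passed for Iglc1 (adjusted p = 0.591 for nanocluster against Control, 0.466 for lenvatinib against Control and 0.193 between treatments). Without nanocluster library 1 the last became 1.52 on the log2 scale (adjusted p = 0.0337), and without nanocluster library 2 the difference from Control turned to -0.19. Iglc2 was at 0.334, 0.819 and 0.457 FPKM in Control, at 0.608, 0.449 and 0.50 in the lenvatinib group, and at 1.43, 3.63 and 3.32 in the nanocluster group, where every library was above those of the other groups. Iglc2 rose over Control by 1.62 ± 0.30 (adjusted p = 0.00577; 0.170 in libraries 1 and 2 alone) and over lenvatinib by 1.62 ± 0.30 (adjusted p = 0.00607; 0.187 in libraries 1 and 2 alone). The lenvatinib and Control levels of Iglc2 differed by less than the spread between libraries (adjusted p = 0.999).

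Igkc exceeded the summed lambda constant genes, Iglc1 to Iglc3, by 20.8 ± 2.17 times in Control and 13.2 ± 3.10 times in the lenvatinib group (SD, n = 3). In the nanocluster group the ratio was 66.3, 10.5 and 18.0 in libraries 1 to 3, so its mean of 31.6 describes no single tumour. Lenvatinib and Control ratios did not overlap (exact permutation p = 0.10 two-sided, the smallest that 3 against 3 allows; 0.15 adjusted over 9 ratio comparisons). Nanocluster against Control gave an exact permutation p of 1. Iglc3 itself was at 0.551, 13.0 and 6.30 FPKM in the nanocluster group, against 0.218 to 1.02 in Control (log2 fold change 2.01 ± 0.82, adjusted p = 0.0918).

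**Figure D2:**
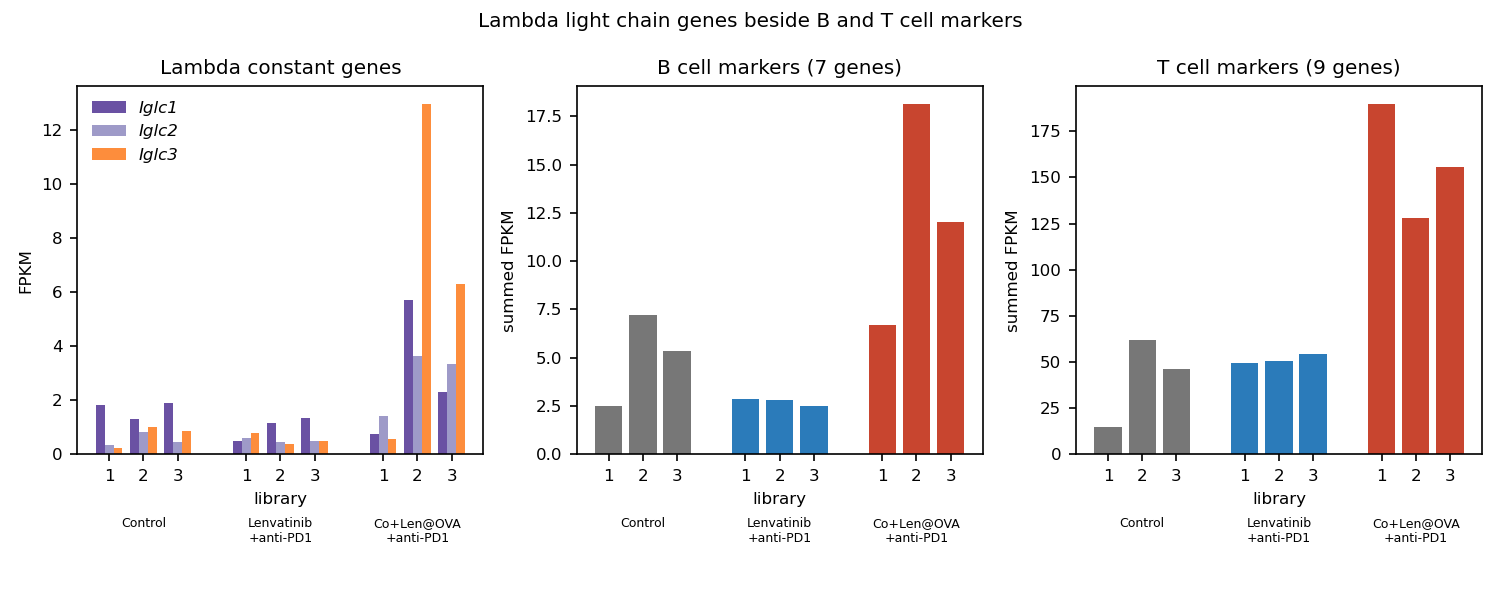
Left, FPKM of Iglc1, Iglc2 and Iglc3 in each library; middle and right, the summed FPKM of 7 B cell and 9 T cell marker genes in the same libraries (bars, linear axes from 0, no error since each bar is 1 library). Nanocluster library 2 has the highest lambda bars and B cell sum (18.2 FPKM), and nanocluster library 1 has the lowest of both in its group and the highest T cell sum (190 FPKM).

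Among the heavy chains, IgM transcripts followed another pattern than the switched isotypes. Ighm was at 6.93, 10.3 and 11.4 FPKM in Control, at 9.67, 15.6 and 11.5 in the lenvatinib group, and at 87.9, 41.9 and 62.8 in the nanocluster group. Control and lenvatinib libraries overlapped, and all nanocluster libraries were above both. The means were 9.54 ± 2.33, 12.3 ± 3.06 and 64.2 ± 23.0 FPKM (SD, n = 3). Ighm rose over Control in the nanocluster group by 2.65 ± 0.30 on the log2 scale (adjusted p = 0.000734; 0.0702 in libraries 1 and 2 alone), a 6.29-fold difference and the largest of the members in this comparison. Over lenvatinib it rose by 2.30 ± 0.30 (adjusted p = 0.00114; 0.0785 in libraries 1 and 2 alone). Lenvatinib and Control did not pass (0.35 ± 0.30, adjusted p = 0.431).

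Ighg2c, the IgG subclass that C57BL/6 mice carry in place of Ighg2a and that interferon gamma is known to favour in switching, was the most abundant switched heavy chain in Control and in the nanocluster group. The labels give no strain, and Ighg2c is named here by its deposited symbol. It was at 17.9, 16.8 and 18.8 FPKM in Control, at 2.63, 2.98 and 3.01 in the lenvatinib group, and at 33.9, 98.2 and 65.7 in the nanocluster group. The groups stood apart, and the nanocluster libraries spread widely, with a mean of 65.9 ± 32.1 FPKM (SD, n = 3). Against Control, Ighg2c fell in the lenvatinib group (log2 fold change -2.44 ± 0.32, adjusted p = 0.00183; 0.136 in libraries 1 and 2 alone) and rose in the nanocluster group (1.73 ± 0.32, adjusted p = 0.00569; 0.152 in libraries 1 and 2 alone). The gap between the treatments, 4.17 ± 0.32 on the log2 scale or 18.1-fold, was the largest of any member (adjusted p = 8.6e-05) and passed in libraries 1 and 2 alone (4.14, adjusted p = 0.0285).

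Ighg2b, the neighbouring subclass gene, moved like Ighg2c at a lower level. Its values were 1.81, 2.75 and 2.81 FPKM in Control, 0.480, 0.516 and 0.607 in the lenvatinib group, and 4.35, 10.6 and 7.68 in the nanocluster group, again without overlap. It fell with lenvatinib (log2 fold change -1.50 ± 0.28, adjusted p = 0.00795; 0.211 in libraries 1 and 2 alone) and rose with the nanocluster (1.38 ± 0.28, adjusted p = 0.00870; 0.163 in libraries 1 and 2 alone). Between treatments the difference was 2.88 ± 0.28 (adjusted p = 0.000286), and 2.88 with an adjusted p of 0.0458 in libraries 1 and 2 alone. Of all pairs of members, Ighg2b and Ighg2c ran most closely together over the 9 libraries (Pearson r = 0.990 between log2 values), and their coding sequences are the most alike of the 3 IgG members shown above.

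Ighg1 is the subclass that interleukin 4 is known to favour. It was at 5.15, 5.45 and 5.22 FPKM in Control, at 1.12, 1.35 and 1.44 in the lenvatinib group, and at 4.37, 4.48 and 4.54 in the nanocluster group. Its spread within a group was small, and the nanocluster libraries all lay below the Control libraries. Ighg1 fell with lenvatinib by 1.68 on the log2 scale (SE 0.09, adjusted p = 3.2e-05), the only such call that also passed in libraries 1 and 2 alone (-1.74, adjusted p = 0.0311). The nanocluster to Control difference was -0.22 ± 0.09 (adjusted p = 0.0833). With median-of-ratios scaling it was -0.36 (adjusted p = 0.0128) and with upper-quartile scaling -0.42 (adjusted p = 0.0107), so this call depends on the scaling. Between treatments Ighg1 was higher with the nanocluster by 1.46 ± 0.09 (adjusted p = 2.4e-05), and by 1.51 with an adjusted p of 0.0191 in libraries 1 and 2 alone.

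Because Ighg2c and Ighg1 parted, their ratio within a library differed between the groups. It was 3.38 ± 0.274 in Control, 2.21 ± 0.123 in the lenvatinib group and 14.7 ± 7.08 in the nanocluster group (SD, n = 3), with 7.77, 21.9 and 14.5 in nanocluster libraries 1 to 3. None of the groups overlapped, and each of the 3 comparisons gave an exact two-sided permutation p of 0.10, the smallest possible here (0.15 adjusted over 9 ratio comparisons). This ratio was not planned and restates the member values above, so it is no separate support for them.

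Igha, the constant region of IgA and the main mucosal isotype, was at 4.40, 14.0 and 11.5 FPKM in Control, at 1.75, 3.35 and 2.44 in the lenvatinib group, and at 11.0, 18.1 and 15.0 in the nanocluster group. Control library 1 was well below the other Control libraries, and the Control and nanocluster ranges overlapped. Igha fell with lenvatinib (log2 fold change -1.69 ± 0.40, adjusted p = 0.0200). That call was lost without Control library 3 (adjusted p = 0.0715), without lenvatinib library 1 (0.0638), without lenvatinib library 3 (0.0654) and in libraries 1 and 2 alone (0.301). Nanocluster against Control did not pass (0.65 ± 0.40, adjusted p = 0.232), and nanocluster against lenvatinib did (2.34 ± 0.40, adjusted p = 0.00436; 0.141 in libraries 1 and 2 alone).

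**Figure D3:**
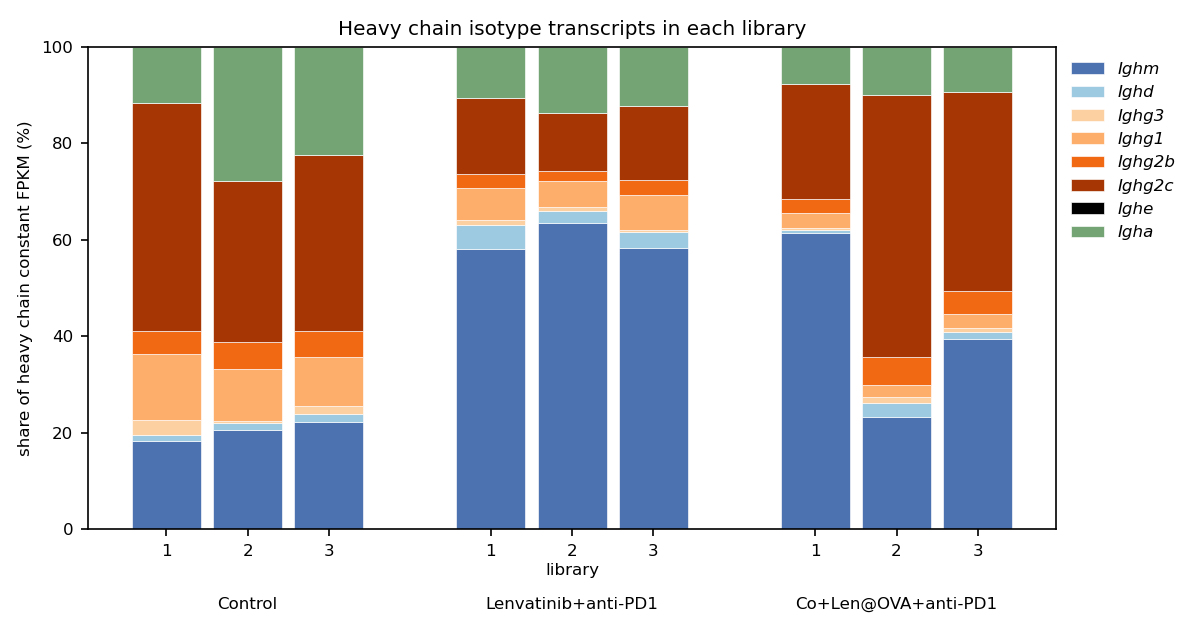
Share of each heavy chain constant gene in the summed heavy chain constant FPKM (%) of each library; each stacked bar is 1 library and sums to 100%. Ighm makes up 18.3 to 22.2% of the bar in Control and 58.1 to 63.5% in the lenvatinib group, while in the nanocluster group it runs from 23.2 to 61.5%.

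As a share of heavy chain constant FPKM, the isotype makeup differed as well as the level. Ighm took 20.3 ± 1.97% in Control and 60.0 ± 3.07% in the lenvatinib group (SD, n = 3). Ighg2c took 39.1 ± 7.27% in Control, 14.4 ± 2.01% with lenvatinib and 39.7 ± 15.4% with the nanocluster. Ighg1 took 11.5 ± 1.81%, 6.50 ± 0.918% and 2.79 ± 0.292% in Control, lenvatinib and nanocluster tumours, and Igha 20.6 ± 8.25%, 12.2 ± 1.54% and 9.04 ± 1.17%. These are shares of length-scaled RNA, not of cells or of protein. The ratio of Ighm to the summed IgG genes was 0.266, 0.409 and 0.413 in Control libraries 1 to 3, 2.20, 3.12 and 2.23 with lenvatinib, and 2.04, 0.363 and 0.790 with the nanocluster. Lenvatinib and Control did not overlap in this ratio (exact permutation p = 0.10 two-sided, the smallest possible; 0.15 adjusted over 9 ratio comparisons). Nanocluster and Control did overlap (exact permutation p = 0.30, adjusted 0.386). Nanocluster ratios were below those of the lenvatinib group without overlap (exact permutation p = 0.10, adjusted 0.15). The test of this ratio was not planned either, and the ratio restates values of the same genes.

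The nanocluster tumours themselves were of unlike makeup. Library 1 had the highest Ighm of all libraries (87.9 FPKM) and, in its group, the lowest Ighg1, Ighg2b, Ighg2c, Igha, Igkc, Iglc1, Iglc2, Jchain and Mzb1. Library 2 had the lowest Ighm of the group (41.9 FPKM) and the highest Ighg2c (98.2 FPKM), Igha, Igkc and lambda values. Library 3 lay between them for 8 of 10 members. Ighd, the IgD gene of naive B cells, was at 0.808 FPKM in library 1 and 5.45 in library 2. The summed B cell markers were 6.70, 18.2 and 12.0 FPKM in the 3 libraries and the summed T cell markers 190, 128 and 156. Whether the isotype makeup is related to these marker levels was not tested.

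Jchain and Mzb1, the genes outside the antibody loci, ran together over the 9 libraries (Pearson r = 0.988, all sharing the same libraries and scaling). Jchain was at 1.97, 2.96 and 2.49 FPKM in Control, at 0.945, 2.21 and 1.86 in the lenvatinib group, and at 7.70, 9.58 and 8.56 in the nanocluster group. Only the nanocluster libraries stood apart. Jchain rose over Control by 1.62 ± 0.23 on the log2 scale (adjusted p = 0.00208; 0.111 in libraries 1 and 2 alone) and over lenvatinib by 2.11 ± 0.23 (adjusted p = 0.000508; 0.0549 in libraries 1 and 2 alone). Lenvatinib against Control did not pass (-0.49, adjusted p = 0.164).

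Mzb1 was at 0.261, 0.645 and 0.403 FPKM in Control, is listed at 0 in lenvatinib library 1 with 0.214 and 0.101 in the others, and was at 2.94, 3.33 and 3.51 in the nanocluster group. It rose over Control by 2.02 ± 0.20 on the log2 scale (adjusted p = 0.000402; 0.0774 in libraries 1 and 2 alone) and over lenvatinib by 2.65 ± 0.20 (adjusted p = 7.1e-05), where it also passed in libraries 1 and 2 alone (2.60, adjusted p = 0.0310). Its mean reached the filter through the nanocluster group only. With no filter on low values the adjusted p was 0.000867 against Control and 0.000147 against lenvatinib. On this scale the change of a gene at such low levels is understated. Lenvatinib against Control gave -0.63 ± 0.20 with an adjusted p of 0.0526, near the threshold. It passed with a pseudocount of 0.1 FPKM (-1.47, adjusted p = 0.0452), with median-of-ratios (0.0408) or upper-quartile scaling (0.0370), with a plain variance model (0.0397), with the replicate block (0.0418) and without Control library 1 (0.0214).

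**Figure D4:**
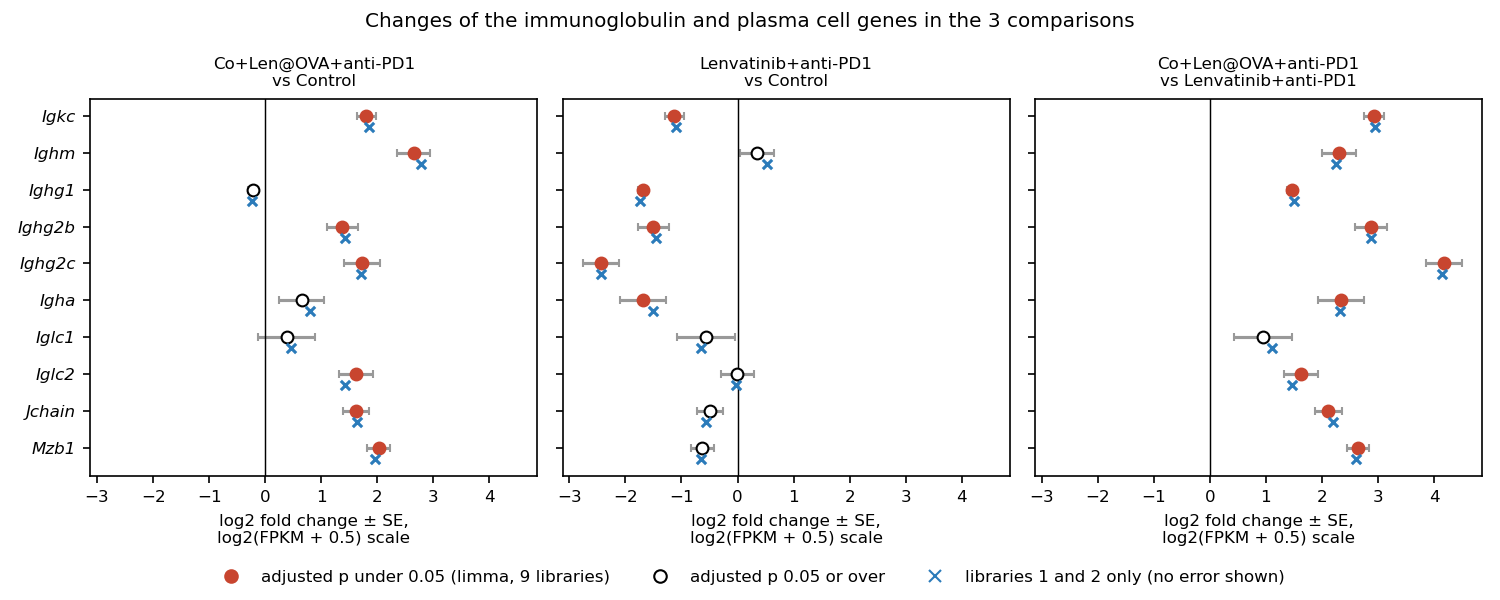
Log2 fold change with its SE (limma, 9 libraries, log2(FPKM + 0.5) scale) of each member in the 3 comparisons; filled circles have an adjusted p under 0.05, open circles do not, and crosses give the value from libraries 1 and 2 only. Crosses lie on the same side of 0 as the circles for all 10 members in each panel, Ighm lies to the right of 0 with lenvatinib against Control while Ighg2c lies at -2.44, and Ighg2c has the largest value between treatments, 4.17.

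The variable segments that are joined to these constant regions gave the same order of groups. Summed over 190 V segments, the level was 125 ± 32.9 FPKM in Control, 25.4 ± 4.53 in the lenvatinib group and 322 ± 10.5 in the nanocluster group (SD, n = 3). Between 38 and 60 segments were above 0.5 FPKM in a Control library, 8 to 18 in a lenvatinib library and 67 to 78 in a nanocluster library. The segments are parts of the same transcripts as the constant regions, so they are no separate support for the member results. The number above 0.5 FPKM also depends on the summed level.

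Genes that define plasma cells did not move as a block. Of 14 tested plasma cell identity genes, 6 rose and 2 fell in the nanocluster group against Control, with a median log2 fold change of 0.63 beside 0.13 over all genes. Over all tested genes 20.9% were called higher and 12.7% lower. In libraries 1 and 2 alone 0 passed by limma (3 rose and 2 fell at an unadjusted p under 0.05). Irf4, a transcription factor that plasma cells need and that activated T cells also use, was at 0.364 ± 0.179 FPKM in Control and 1.10 ± 0.0318 in the nanocluster group (SD, n = 3), and rose by 0.91 ± 0.19 (adjusted p = 0.00908; 0.186 in libraries 1 and 2 alone). Prdm1, which encodes Blimp-1, the regulator of the plasma cell programme, was at 7.10 ± 0.674 and 7.99 ± 2.13 FPKM (adjusted p = 0.577). Xbp1, which drives the secretory programme and is also high in liver, was at 54.0 ± 7.20 and 57.8 ± 2.67 FPKM (adjusted p = 0.422). Sdc1, which encodes the plasma cell surface marker syndecan-1 and is also made by epithelial cells, fell from 42.2 ± 1.84 to 28.1 ± 0.566 FPKM (adjusted p = 0.00043; 0.0898 in libraries 1 and 2 alone) and to 27.5 ± 1.26 with lenvatinib (adjusted p = 0.000421; 0.120 in libraries 1 and 2 alone). Tnfrsf17, the survival receptor BCMA, lay between 0 and 0.240 FPKM and was not tested.

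Other plasma cell identity genes that rose with the nanocluster were Cd38 (1.12), Pou2af1 (0.84), which encodes a B cell coactivator, Pim2 (0.42), Cd28 (1.18) and Zbp1 (2.08), the log2 fold changes against Control standing in parentheses. These 5 were not all chosen by the naming rule and are given because they passed. Cd28 is also a T cell gene, and Zbp1, a nucleic acid sensor induced by interferon, rose with lenvatinib as well (1.65, adjusted p = 0.00336). Tmem176b, the most abundant of the list, was at 101 ± 2.53, 110 ± 3.26 and 106 ± 19.6 FPKM in Control, lenvatinib and nanocluster tumours. With lenvatinib against Control 1 gene of the list rose and 2 fell, Sdc1 and Bhlha15 (median -0.16). Between treatments 5 rose and 0 fell by limma (0 lower at an unadjusted p under 0.05; median 0.53). Of all tested genes 13.8% were called higher and 9.87% lower with lenvatinib, and 17.3% and 12.0% between treatments. In libraries 1 and 2 alone 0 passed by limma in either comparison (1 higher and 1 lower with lenvatinib, and 3 higher between treatments, at an unadjusted p under 0.05).

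The secretory machinery that plasma cells use to fold and export antibody was tested through 20 genes. In the nanocluster group 5 genes rose and 5 fell against Control (median 0.09, beside 0.13 over all genes), where 20.9% of all genes were called higher and 12.7% lower. By limma 0 passed in libraries 1 and 2 alone (4 higher and 4 lower at an unadjusted p under 0.05). Hspa5, the main chaperone of the endoplasmic reticulum, was at 319 ± 58.3 FPKM in Control, 120 ± 3.78 with lenvatinib and 198 ± 8.46 with the nanocluster (SD, n = 3), and fell in both (-0.68, adjusted p = 0.00467, and -1.40, adjusted p = 0.000276, for nanocluster and lenvatinib, with 0.148 and 0.0784 in libraries 1 and 2 alone). Hsp90b1, a chaperone of the same compartment, fell in both as well (-0.38 and -0.47), and Pdia6, a disulfide isomerase, passed in neither (0.07 and -0.22). With lenvatinib 6 genes fell and 0 rose by limma (0 higher at an unadjusted p under 0.05), and 0 passed in libraries 1 and 2 alone (5 lower at an unadjusted p under 0.05). Between treatments 11 rose and 2 fell (median 0.37, beside 0.07 over all genes), and 2 rose in libraries 1 and 2 alone. Of all tested genes 13.8% were called higher and 9.87% lower with lenvatinib, and 17.3% and 12.0% between treatments. These genes are expressed in hepatocytes and hepatoma cells as in plasma cells.

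B cell identity genes were at low levels, and 8 of the 19 found were tested. Of these, 3 rose in the nanocluster group against Control (Spib, Cd72 and Blnk) and 0 fell by limma (0 lower at an unadjusted p under 0.05), with a median of 0.91. Over all tested genes 20.9% were called higher and 12.7% lower. Spib reached the filter through the nanocluster group only, at a mean of 0.330 FPKM in Control, 0.342 with lenvatinib and 1.09 with the nanocluster, so its place among the tested genes rests on the group where it is high. In libraries 1 and 2 alone 0 passed (3 rose at an unadjusted p under 0.05). Cd79a and Cd79b encode the signalling chains of the B cell receptor. Cd79a was at 1.15 ± 0.222 FPKM in Control, 0.641 ± 0.290 with lenvatinib and 1.40, 6.11 and 3.69 in nanocluster libraries 1 to 3, and did not pass against Control (1.20 ± 0.41, adjusted p = 0.0566). Against lenvatinib it rose (1.74 ± 0.41, adjusted p = 0.0168; 0.278 in libraries 1 and 2 alone). Cd79b followed the same pattern (0.84, adjusted p = 0.0839 against Control, and 1.25, adjusted p = 0.0255, against lenvatinib). Cd72, the most abundant of the list, rose over Control by 2.04 (adjusted p = 0.0106). Between treatments 5 genes rose and 0 fell by limma (0 lower at an unadjusted p under 0.05), and with lenvatinib against Control 0 passed (1 higher at an unadjusted p under 0.05). Of all tested genes 17.3% were called higher and 12.0% lower between treatments, and 13.8% and 9.87% with lenvatinib. Between treatments 0 passed by limma in libraries 1 and 2 alone (1 higher at an unadjusted p under 0.05). With lenvatinib against Control 0 passed there as well (0 at an unadjusted p under 0.05).

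Genes of the germinal centre, where B cells switch class, were tested through 7 genes, of which 4 rose with the nanocluster against Control and 0 fell by limma (0 lower at an unadjusted p under 0.05; median 0.91). Il21r, the receptor for the helper cytokine interleukin 21, rose by 1.94 (adjusted p = 0.00769), Fas by 1.01 (adjusted p = 0.000661) and Bcl6, a transcription factor of germinal centre B cells, by 0.93 (adjusted p = 0.0139). T cells and myeloid cells express these genes too. With lenvatinib 1 gene of the list, Fas, rose (0.53, adjusted p = 0.0117), and between treatments 4 rose. The shares of all tested genes called higher were 20.9% with the nanocluster against Control, 13.8% with lenvatinib and 17.3% between treatments. Those called lower were 12.7%, 9.87% and 12.0% in the same order. No comparison had a germinal centre gene pass by limma in libraries 1 and 2 alone, a count of 0 (4 were higher than Control with the nanocluster at an unadjusted p under 0.05).

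Signals that keep plasma cells alive or draw them into tissue were tested through 8 genes. Tnfsf13, which encodes the survival factor APRIL, Il10 and the adhesion molecule Icam1 rose with the nanocluster against Control (0.94, 0.74 and 1.38) and 0 fell by limma (0 lower at an unadjusted p under 0.05; median 0.82). Vcam1, which holds plasma cells in their niche, was at 4.43, 38.7 and 25.2 FPKM in the Control libraries and 20.2 ± 2.32 in the nanocluster group (adjusted p = 0.770). Cxcr4, the receptor that guides plasma cells to CXCL12, rose between treatments (2.02, adjusted p = 0.00992) and did not pass against Control (0.91, adjusted p = 0.126). With lenvatinib against Control 0 genes of the list passed by limma (1 lower at an unadjusted p under 0.05), and between treatments 3 rose. The shares of all tested genes called higher were 20.9% with the nanocluster against Control, 13.8% with lenvatinib and 17.3% between treatments. Those called lower were 12.7%, 9.87% and 12.0% in the same order. In libraries 1 and 2 alone 0 passed by limma in any comparison (2 were higher than Control with the nanocluster at an unadjusted p under 0.05).

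Of 7 cytokines that steer class switching, 3 were tested, and Il4, Il13, Il21 and Il5 were below the filter. Ifng, which favours Ighg2c, was at 0.433, 1.57 and 1.09 FPKM in Control, 3.10, 3.30 and 2.90 with lenvatinib and 4.59, 6.06 and 5.22 with the nanocluster. It rose in both treated groups against Control (1.31 ± 0.26, adjusted p = 0.00979, with lenvatinib, and 1.99 ± 0.26, adjusted p = 0.00141, with the nanocluster), while Ighg2c fell in the former and rose in the latter. Neither Ifng call passed in libraries 1 and 2 alone (adjusted p = 0.202 and 0.0948). Tgfb1, which favours IgA switching, fell with lenvatinib (-0.28, adjusted p = 0.0240) and was 0.18 above Control with the nanocluster (adjusted p = 0.0844). Whether the levels of these cytokines are related to those of the isotypes was not tested.

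Of the receptors that carry or bind antibody, Pigr moved opposite to the summed heavy chain constant genes. It encodes the receptor that takes polymeric IgA and IgM, the forms built with Jchain, across epithelial cells. Pigr was at 6.75, 3.28 and 4.97 FPKM in Control, 11.6, 12.5 and 13.1 with lenvatinib and 0.291, 0.466 and 0.595 with the nanocluster, without overlap. It fell with the nanocluster (-2.50 ± 0.23, adjusted p = 0.000312), rose with lenvatinib (1.28 ± 0.23, adjusted p = 0.00598), and differed between treatments by -3.77 ± 0.23 (adjusted p = 2.56e-05). The difference between treatments passed in libraries 1 and 2 alone (-3.84, adjusted p = 0.0147) and those from Control did not (adjusted p = 0.0630 with the nanocluster and 0.186 with lenvatinib). Hepatocyte markers shared this direction between nanocluster and Control, where 11 of 11 fell (4 in libraries 1 and 2 alone). Between treatments 11 of 11 fell as well (7 in libraries 1 and 2 alone), and with lenvatinib against Control 3 rose and 1 fell (2 and 0 in libraries 1 and 2 alone). Of all tested genes 12.7% were called lower with the nanocluster against Control and 12.0% between treatments. With lenvatinib 13.8% were called higher and 9.87% lower. The summed level of the hepatocyte markers was 2687 to 5762 FPKM in Control, 3883 to 4147 with lenvatinib and 871 to 1155 with the nanocluster. Their part in the Pigr result was not tested. Fcgrt, the receptor that recycles IgG, was at 41.2 ± 7.61, 36.3 ± 3.54 and 39.9 ± 1.53 FPKM in the 3 groups and passed in no comparison. Trim21, a cytosolic antibody receptor induced by interferon, rose in both treated groups (1.04 with the nanocluster and 0.55 with lenvatinib), and neither call passed in libraries 1 and 2 alone (adjusted p = 0.127 and 0.375).

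Of the constant genes outside the members, Iglc3 reached the level of several members in nanocluster libraries 2 and 3. Of Ighd, Ighg3 and Iglc3, 0 passed against Control with the nanocluster by limma (2 higher at an unadjusted p under 0.05) and 0 with lenvatinib (0 at an unadjusted p under 0.05). Between treatments Ighg3 rose (1.46 ± 0.41, adjusted p = 0.0312). In libraries 1 and 2 alone 0 of these genes passed by limma in any comparison (0 at an unadjusted p under 0.05). Ighe, the IgE gene, was at or near 0 in every library and was not tested.

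Markers of plasma cells and of other tissues were read beside these results. Of 7 tested plasma cell markers, 3 rose with the nanocluster against Control, Irf4 and the members Jchain and Mzb1, and 1 fell, Sdc1. With lenvatinib 2 fell, Sdc1 and Derl3, and between treatments 4 rose, Jchain, Mzb1, Irf4 and Derl3. Jchain and Mzb1 are members counted again here, so these counts are no separate support for the member results. Mzb1 reached the filter through the nanocluster group alone. In libraries 1 and 2 alone 0 passed by limma in either comparison with Control, and between treatments 1 rose, Mzb1. At an unadjusted p under 0.05 there, 3 were higher and 1 lower with the nanocluster, and 2 lower with lenvatinib. For these counts and those below, the shares of all tested genes called higher were 20.9%, 13.8% and 17.3% in these 3 comparisons. Those called lower were 12.7%, 9.87% and 12.0%. All 7 markers of blood (red cells and platelets) rose with the nanocluster against Control, from a summed 316 to 619 FPKM to 2129 to 3061, and lenvatinib libraries had 186 to 452. Of 9 T cell markers 7 rose with the nanocluster, from 14.7 to 62.1 FPKM in Control to 128 to 190, and 0 passed with lenvatinib by limma (0 at an unadjusted p under 0.05), at 49.5 to 54.4. The summed B cell markers ran from 2.50 to 7.19 FPKM in Control, from 2.49 to 2.85 with lenvatinib and from 6.70 to 18.2 with the nanocluster, and Ms4a1, Pax5 and Blk were below the filter. Of 4 tested lymph node markers 1 rose and 1 fell with the nanocluster, and the sums were 5.77 to 6.77 FPKM in Control, 13.5 to 34.0 with lenvatinib and 9.68 to 16.4 with the nanocluster. Gut markers fell in 3 of 4 cases with the nanocluster, 2 of 6 adipocyte markers rose in each treated group, and 6 of 6 skeletal muscle markers rose with lenvatinib, up to 3792 FPKM in 1 library. By limma 0 blood, 0 T cell and 0 skeletal muscle markers passed in libraries 1 and 2 alone (7 and 7 higher with the nanocluster, and 4 higher with lenvatinib, at an unadjusted p under 0.05). Lymph node, gut and adipocyte markers had 0 calls there too. At an unadjusted p under 0.05 there, 1 lymph node and 2 adipocyte markers were higher and 1 gut marker was lower with the nanocluster. With lenvatinib 2 lymph node, 1 gut and 2 adipocyte markers were higher at that level. The part of blood, lymphoid or other tissue in the antibody results was not tested. Control library 1 had the lowest B and T cell marker sums of its group and the lowest Igkc, Ighm, Ighg1, Ighg2b, Igha, Iglc2, Jchain and Mzb1.

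The genes whose pattern was most like that of the members were sought among 11088 others with a mean of at least 2 FPKM. The measure was Pearson's r over the 9 libraries with the mean centred log2 level of the 10 members. That level was -0.38, 0.02 and -0.03 in Control, -1.37, -0.92 and -1.03 with lenvatinib and 0.87, 1.53 and 1.31 with the nanocluster. The 8 highest were Mkrn1 (0.994), Fabp5 (0.989), Ifnar2, Supt20, Tagln2 and Pros1 (0.986 each), and Ccrl2 and Glipr2 (0.984 each). None of them belongs to the plasma cell or B cell lists. Mkrn1, which encodes a ubiquitin ligase, was at 18.6 ± 0.529 FPKM in Control, 14.0 ± 0.475 with lenvatinib and 28.0 ± 3.24 with the nanocluster (SD, n = 3). Fabp5, a fatty acid carrier, was at 49.2 ± 1.93, 40.9 ± 0.632 and 64.2 ± 6.22 FPKM. The libraries fall into 3 groups that differ in level, and r is given as a description. Among the members themselves r ran from 0.250 between Ighm and Iglc1 to 0.990.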

How the data were processed

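Polyadenylated RNA from 9 tumours was sequenced with strand-marked libraries, 150 bases from each end, per the labels' protocols. Tools named in the submitters' processing notes are StringTie, fastp and edgeR, with no versions. The deposited table is named as raw counts, but its sample columns hold FPKM made by the authors, so a count test was not used. Low values lay on whole-read steps in 21.8 to 25.1% of cases (10% would by the tolerance of 0.05 alone), so reads were not recovered and depth is unknown. The step size was the best of many tried in each library, so 10% is a low baseline.

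FPKM were used as deposited, without rescaling. Genes whose mean reached 0.5 FPKM entered limma 3.58.1 in R 4.3.3 (trended, robust empirical Bayes, two-sided) on log2(FPKM + 0.5), in 1 fit of 9 libraries with 6 residual degrees of freedom, and Benjamini-Hochberg adjustment over all tested genes with a threshold of 0.05. "Rose" and "fell" refer to this threshold. The log2(FPKM + 0.5) scale understates changes of low genes. This step was first tested on simulated data with known changes. Ratios within a library were compared by exact permutation tests, which had been planned for the kappa to lambda ratio only. Alternatives were other pseudocounts, filters, scalings and variance models, fits of 2 groups, a replicate block, leaving out each library, and libraries 1 and 2 only. Sequences and positions come from GENCODE M21 (GRCm38).

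The members, the 8 gene lists and the 9 marker lists were chosen with earlier results of these data known. Named are all members, the 3 genes of each list with the largest mean, the factors and receptors that define plasma cells, and the 8 genes most like the members. Further list genes are named where they passed or where their level bears on a count, and these were chosen after their values were seen.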

Additional observations from a re-analysis of the deposited data

How the results depend on the processing

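With libraries 1 and 2 only, the number of members called was 0 for nanocluster against Control, 1 for lenvatinib against Control and 5 between treatments, against 7, 5 and 9 in all libraries. That fit has fewer samples. Leaving out each library in turn gave 7 to 7, 4 to 6 and 9 to 10 calls. Replicate numbers do not pair the tumours: deviations of same-numbered libraries correlated from -0.248 to 0.0785. With the replicate block the calls were 7, 6 and 9.

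Of the single-member values under all alternatives, 557 kept direction and side of the threshold, 18 no longer passed, 9 newly passed and 6 changed sign. The sign changes were in Iglc1 for nanocluster against Control when 1 library was left out (range -0.19, without nanocluster replicate 2, to 0.95), and in Iglc2 for lenvatinib against Control, which is near 0: a pseudocount of 0.1 FPKM gave 0.023, scaling without mitochondrial and immunoglobulin genes 0.0051, and leaving out each library gave -0.14 to 0.19. The cause was not tested. With Iglc1 and Iglc2 only in the denominator, the kappa to lambda ratio was 27.1 in Control, 18.3 with lenvatinib and 48.7 with the nanocluster, since the denominator is then smaller, and nanocluster and lenvatinib libraries no longer overlapped. Depth in reads is unknown, so no counting error is given for values under 1 FPKM.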
